A study of Mus musculus with 2 samples.

Results

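The ISG15 conjugation genes and antiviral PARP genes are 10 of the 22609 genes in the deposited tables. They are Isg15, Uba7, Ube2l6, Trim25, Usp18, Parp9, Parp10, Parp12, Parp14 and Dtx3l. The genes were grouped by their known role, but the set was proposed from the mimic-to-scramble values of these same libraries. Every ratio below is therefore a description and carries no test. RNA recovered with an Ago2 antibody was sequenced from TM4 cells, an established mouse line described as a Sertoli cell line from the testis, 48 h after transfection. There was 1 library from cells given miR-471-5p mimic and 1 from cells given scramble, and cells of both groups were otherwise grown alike in DMEM with serum. Nothing in the labels gives the clone or passage of the line.

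ISG15 is a small ubiquitin-like protein that cells make in response to type I interferon. It is joined to other proteins by an activating enzyme (E1, Uba7), a conjugating enzyme (E2, Ube2l6) and ligases (E3, among them Trim25 and, in mice, Herc6), and is taken off again by the protease Usp18, which also dampens signalling at the interferon receptor. PARP enzymes attach ADP-ribose to proteins or nucleic acids, and several of them, Parp9, Parp10, Parp12 and Parp14 among them, are induced by interferon. Parp9 acts in a complex with the ubiquitin ligase Dtx3l. Sertoli cells, which surround the germ cells, are known to mount an interferon response to viruses.

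The transfected miRNA is shown first, with its seed (bases 2 to 8, which pair with target mRNAs) in capitals. The sequence is from RefSeq, GRCm38.p6, chrX:66792634-66792655, minus strand.

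miR-471-5p: uACGUAGUauagugcuuuucac

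The mRNA letters that pair with this seed, ACTACGT, occurred in 0 of the 47 GENCODE M21 transcripts of the 10 genes. The shorter match to bases 2 to 7, CTACGT, was found at a single place in Uba7 and in none of the other 9 genes. It lies on GRCm38 chr9:107980043-107980048, plus strand, in the coding part of exon 18 of 24 of a coding transcript of Uba7, and other Uba7 transcripts carry it in exons annotated as non-coding or 3′-UTR. The match is shown in capitals with 10 bases on each side.

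Uba7: tgcatttcctCTACGTactggcagct

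Only contiguous letters were searched, and a match is not a binding site. Transcripts of other genes were not searched, so the share of all transcripts with these letters is not known. Nothing about the 10 genes is read from these counts.

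RefSeq promoters (250 bases before to 50 after the start, GRCm38.p6) were at hand for 6 of the 10 genes, Isg15, Uba7, Ube2l6, Trim25, Parp12 and Dtx3l. They were searched on both strands for the letters of the interferon-stimulated response element (GAAA, any 2 bases, GAAA) and of the gamma-activated sequence, TTCNNNGAA. The first was found in 1 of the 6, Isg15, and in 3.44% of all 32851 promoters in the table. The second was found in none of the 6 and in 8.3% of all. In Isg15 the response element letters began at 3 overlapping places and ran from base 78 to base 57 before the start, and 3 or more such starts were found in 5 promoters of the table. The 100 bases before the start are given for the 3 genes whose start is the same base in RefSeq and GENCODE, with the matched letters in capitals: Isg15 (chr4:156200819-156200918, minus strand), Ube2l6 (chr2:84798728-84798827, plus strand) and Parp12 (chr6:39118350-39118449, minus strand).

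Isg15: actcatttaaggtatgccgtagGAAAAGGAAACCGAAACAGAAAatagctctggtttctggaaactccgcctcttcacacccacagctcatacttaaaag
Ube2l6: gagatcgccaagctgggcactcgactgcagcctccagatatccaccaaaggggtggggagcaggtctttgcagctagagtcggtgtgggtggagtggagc
Parp12: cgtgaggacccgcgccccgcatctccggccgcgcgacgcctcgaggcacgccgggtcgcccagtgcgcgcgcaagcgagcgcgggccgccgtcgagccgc

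These windows also differ in composition, since the 300-base promoter of Parp12 is 73.7% G and C, that of Ube2l6 59.7% and that of Isg15 46.3%, against a median of 52.7% over all promoters. Letters outside the 300 bases of each promoter were not searched.

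The tables hold raw read counts per gene, with 18628310 reads on genes for the mimic and 18717225 for scramble. Counts are also given as CPM, which is the count scaled to 1000000 reads on genes, and log2 ratios, always mimic over scramble, were scaled by TMM over the 12186 genes with at least 20 reads in both libraries together. All 10 genes passed that minimum. With 1 library per group no ratio has a replicate check, and the 95% intervals given with the ratios are exact Clopper-Pearson intervals that cover counting error only. Ratios moved with exon length over all genes, so corrected values, taken after a regression on exon length and GC content and given with no interval, stand beside a difference wherever they leave its interval or turn its direction. RNA from before the immunoprecipitation was not analysed here, so the amount of an mRNA and its association with Ago2 cannot be told apart, and neither can fewer expressing cells and less RNA per cell. Sertoli markers were partly present. Sox9, Gata4, Wt1, Clu, Kitl and Inha had reads in both libraries, Fshr had 0, and Amh, Dhh and Cldn11 had at most 5. The 11 Sertoli markers summed to 764 CPM in the mimic and 955 CPM in the scramble library, of which Kitl made up 657 and 864 CPM, and without Kitl the direction turned, with 106.9 and 91.8 CPM. Leukocyte markers summed to 5.9 and 3.31 CPM, with Ptprc, Emr1, Itgam and Cd3e at 0 of 18628310 and 18717225 reads, which allows up to 0.161 and 0.16 CPM, and with most of their reads from Cd14 (81 and 26 reads) and Csf1r (18 and 25 reads). Leydig cell markers summed to 4.51 and 4.70 CPM and germ cell markers to 6.33 and 7.05 CPM. Acta2, a smooth muscle actin used as a peritubular marker, had 73076 and 101778 reads. The rest of the peritubular and endothelial list was near 0, with Myh11 at 6 and 6 reads, Pecam1 at 6 and 7 and Cdh5 at 0 and 1. The part of these markers in the ratios below was not tested.

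Of the 10 genes, 8 were higher in the mimic library and 2, Uba7 and Trim25, were lower. The 2 genes past 2-fold were Isg15 and Usp18, the modifier and its protease, while the enzymes that attach it and the PARP genes had folds from 0.82 to 1.47. Over all 12186 genes 3.96% were at least 2-fold higher, 2.95% at least 2-fold lower and 49.9% higher by any amount. The median log2 ratio of the 10 genes was 0.41, against -0.00062 over all genes, and without Isg15 and Usp18 the median of the other 8 was 0.26. The counting interval lay above 0 for 8 of the 10 and below 0 for 2, but at this depth it also lay above 0 for 31.5% and below 0 for 32.5% of all genes. Since the genes were selected on results of this same contrast, nothing is read from these counts. Their summed level was 1018 CPM with the mimic and 914 CPM with scramble.

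**Figure D1:**
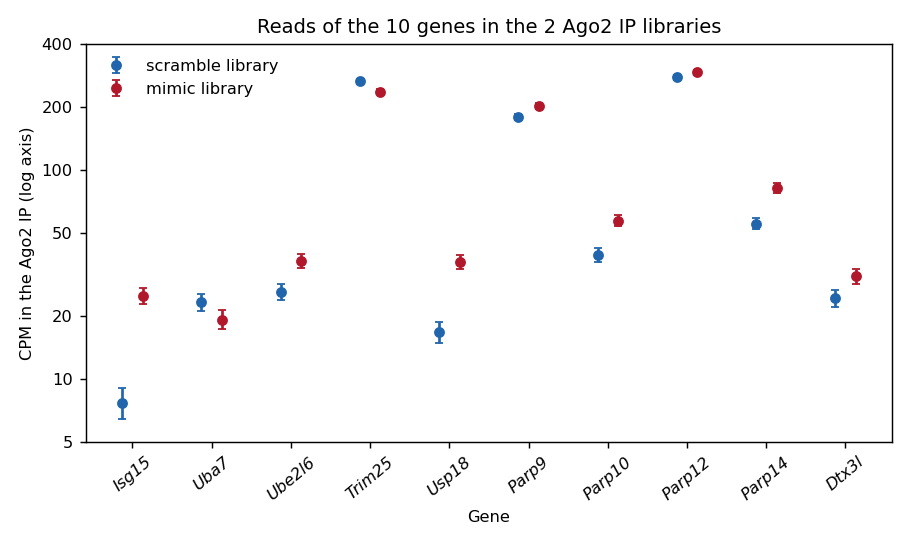
CPM on a log axis for each of the 10 genes in the scramble library (blue) and the mimic library (red), with bars for the exact 95% Poisson interval of the count (1 library each). The widest gaps are in Isg15 (7.64 and 24.96 CPM) and Usp18 (16.7 and 36.4 CPM), while Uba7 and Trim25 have the mimic point below the scramble point.

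Isg15, the modifier itself, had 465 reads with the mimic and 143 with scramble, or 24.96 and 7.64 CPM. This was the widest gap of the set, with a fold of 3.25 (95% interval 2.69 to 3.95) and a log2 ratio of 1.70, at percentile 98.8 of all genes. Its ratio was also above that of each of the 12 other ubiquitin-like modifiers measured, of which polyubiquitin Ubb was next with 2309 and 972 reads and a log2 ratio of 1.25. It took 0.836% of the reads of the 10 genes with scramble and 2.45% with the mimic. A stretch of 482 bases, 63.8% of its transcript, is 95.2% identical to another gene of the GENCODE annotation. The Isg15 count is uncertain, since reads that aligned to several places were counted for no gene. How many Isg15 reads were lost in this way, if any, was not examined. Such alignments made up 39.8% of the entries of the mimic library and 35.6% of the scramble library, and their part in the ratio was not tested.

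Usp18, which removes ISG15 from proteins, had 678 reads with the mimic and 312 with scramble, or 36.4 and 16.7 CPM. Its fold was 2.17 (95% interval 1.90 to 2.49) and its log2 ratio 1.12, so the interval reaches below 2-fold. It was the highest of 45 genes of the Usp family by log2 ratio, where the next, Usp13, stood at 0.38 and 37 of the other 44 were below 0. Isg15 exceeded Usp18 by 0.58 on the log2 ratio scale (95% interval 0.24 to 0.93), but by 0.18 once corrected.

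Uba7 and Trim25, an E1 and an E3 enzyme, had fewer reads in the mimic library. Uba7, the only activating enzyme of this pathway, had 358 reads against 436, a fold of 0.82 (95% interval 0.71 to 0.95), and was number 7 of 10 E1 genes by log2 ratio. Trim25, which also ubiquitinates the RNA sensor RIG-I, had 4406 against 4972, a fold of 0.89 (95% interval 0.85 to 0.92), and was number 25 of 39 Trim genes. Ube2l6, the conjugating enzyme, lay on the other side with 681 against 488 reads, a fold of 1.39 (95% interval 1.24 to 1.57), and was number 6 of 32 E2 genes by log2 ratio, of which Ube2n was the highest at 0.77. The log2 ratio of Isg15 exceeded that of Uba7 by 1.98 (95% interval 1.64 to 2.33), or 1.36 corrected. Herc6, an ISG15 ligase in mice, had 551 reads with the mimic against 447, for a log2 ratio of 0.30, and Trim25 was below it by 0.48 (95% interval of the difference -0.67 to -0.28). Part of the Ube2l6 transcript, 508 bases, is 95.1% identical to the annotated gene Gm17167, and the count of Ube2l6 is uncertain in the same way.

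Among the PARP genes, Parp14 and Parp10 had the higher ratios and Parp9 and Parp12 the higher read numbers. Parp14, a large macrodomain PARP, had 1526 reads with the mimic and 1036 with scramble, a fold of 1.47 (95% interval 1.36 to 1.59). Parp10, a mono-ADP-ribosyltransferase, had 1063 and 733 reads, a fold of 1.45 (95% interval 1.32 to 1.59), and its log2 ratio was within counting error of that of Parp14 (difference -0.02, 95% interval -0.20 to 0.16), although the corrected difference was -0.33. Both had more reads with the mimic, by less than 2-fold. Parp9 had 3761 and 3336 reads, a fold of 1.13 (95% interval 1.08 to 1.18). Parp12, a zinc finger PARP that acts against RNA viruses, had 5451 and 5196 reads, a fold of 1.05 (95% interval 1.01 to 1.09), at percentile 56 of all genes. These narrow intervals come from the read numbers and say nothing of how far replicate libraries would differ.

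Dtx3l, the ligase partner of Parp9, had 576 reads with the mimic and 455 with scramble, a fold of 1.27 (95% interval 1.12 to 1.43). Its log2 ratio of 0.34 and that of Parp9, 0.17, were within counting error of each other (Parp9 minus Dtx3l, -0.17, 95% interval -0.36 to 0.03). In GRCm38 both genes lie head to head on chromosome 16, Parp9 from 35938470 to 35972605 on the plus strand and Dtx3l from 35926511 to 35939151 on the minus strand, with Parp14 on the minus strand from 35832874 to 35871544, about 55 kb from Dtx3l. The exons of Parp9 and Dtx3l share 458 bases, 9.4% of the exon bases of Parp9 and 8% of those of Dtx3l. The strand setting of the counting is not given in the sources used here, and without strand reads from the shared bases cannot be told apart and would be in neither count. Small exon overlaps were also annotated for Uba7 (3.48% of its exon bases), Usp18 (4.44%), Parp10 (4.8%, with Plec) and Parp14 (1.18%).

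In the order of log2 ratios, Isg15 (1.70) stood above Usp18 (1.12), and Usp18 above Parp14 (0.56), each step beyond counting error. From Parp14 down through Parp10 (0.54), Ube2l6 (0.48), Dtx3l (0.34) and Parp9 (0.17), no gene differed from its next neighbour beyond counting error. Parp12 (0.07) lay below Parp9 by 0.10 (95% interval 0.02 to 0.19), Trim25 (-0.17) below Parp12 by 0.24 (95% interval 0.16 to 0.32), and Uba7 (-0.28) was not separated from Trim25. Corrected, the step from Isg15 to Usp18 was 0.18, that from Usp18 to Parp14 0.19, that from Parp14 to Parp10 0.33 and that from Parp12 to Trim25 0.13, all outside their intervals, and the difference Ube2l6 minus Dtx3l was -0.19 in place of 0.14. The spacing of the order therefore depends on the correction.

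Levels were compared between genes per length, as RPKM, that is CPM divided by the exon length in kilobases, with exact 95% Poisson intervals. Parp12 had the highest level in both libraries, 73.2 RPKM (71.3 to 75.2) in the mimic and 69.5 RPKM (67.6 to 71.4) in the scramble. Trim25 (41.1 and 46.2 RPKM) and Parp9 (41.4 and 36.6 RPKM) came next, without separation in the mimic library and with Trim25 above Parp9 in the scramble library. By all exon bases the E1 of the pathway, Uba7, had the lowest level of the set in both. It stood at 2.87 RPKM in the mimic and 3.48 RPKM in the scramble library. Isg15 stood at 33 RPKM (30.1 to 36.2) in the mimic library, place 4 of the 10 and above Ube2l6 (18.3 RPKM), and at 10.1 RPKM (8.52 to 11.9) in the scramble library, place 5, below Ube2l6 (13.1 RPKM) and not separated from Parp10 (9.16 RPKM). The remaining levels in the mimic and scramble libraries were 13 and 5.97 RPKM for Usp18, 8.8 and 5.95 RPKM for Parp14 and 5.4 and 4.25 RPKM for Dtx3l. The order depends on the length used. With the longest transcript in place of all exon bases, 4 of the 10 places were kept in the scramble library and 8 in the mimic. By that length Uba7 (6.43 RPKM) was above Dtx3l (4.58 RPKM) in the scramble library. Parp9 was then above Trim25 in both, with 50.2 and 47.5 RPKM in the scramble and 56.9 and 42.3 RPKM in the mimic library.

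The ratio of mimic to scramble moved with exon length over all genes. In the 2418 genes with the shortest exons (67 to 2554 bases) the median log2 ratio was 0.31 and 9.06% were at least 2-fold higher, while in the 2416 with the longest (7725 bases and more) the median was -0.20 and 1.28% were at least 2-fold higher. Isg15 has 756 exon bases, the fewest of the 10, Ube2l6 1996 and Usp18 2790, while Parp14 has 9306 and Uba7 6692. After a regression of the log2 ratio on exon length and GC content over 12077 genes, which took up 13% of the variance, the fold of Isg15 was 2.21 in place of 3.25 and that of Usp18 1.95 in place of 2.17. By that measure 1 of the 10 genes, Isg15, was at least 2-fold higher. Ube2l6 went to 1.17-fold and Parp14, a long transcript, to 1.71-fold, with 8 genes still above and 2 below the scramble level. The cause of the length trend was not tested.

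**Figure D2:**
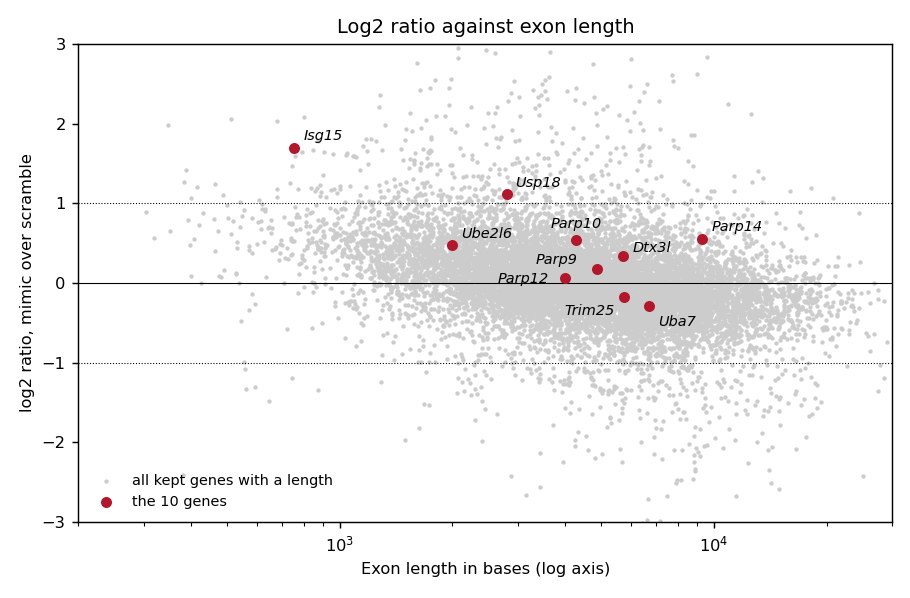
Log2 ratio of mimic to scramble against exon length (log axis) for 12019 genes in grey and the 10 genes in red, with dotted lines at 2-fold and 58 further genes outside the frame. Isg15 lies among the short genes at 1.70, where the grey points are shifted upwards, and Parp14 at 0.56 lies above most genes of its length.

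To set the interferon-inducible genes against relatives that cells make at all times, each was paired with a fixed gene of the same family, and the difference of log2 ratios, in which library scaling cancels, was given an exact 95% interval. The inducible gene was above its relative beyond counting error in 6 of the 10 pairs, below it in 1 and within it in 3. These counts are a description only, since the inducible genes were selected on this contrast, 4 of the 6 pairs share Parp1, and at this depth the interval of a single ratio lay above 0 for 31.5% and below 0 for 32.5% of all genes. Corrected for length and GC content, 5 of the 10 differences stayed within their interval and 4 left it, Dtx3l minus Dtx3 with a change of sign. The other 1, Trim25 minus Trim28, whose interval excluded 0, reversed. Isg15 exceeded Nedd8, another ubiquitin-like modifier (910 and 536 reads), by 0.94 (95% interval 0.62 to 1.26). Usp18 exceeded Usp7, a broadly made ubiquitin protease (2049 and 2123 reads), by 1.17 (95% interval 0.96 to 1.39), or 0.84 corrected. Ube2l6 and its close relative Ube2l3, which had 1809 and 1248 reads, differed by -0.05 (95% interval -0.26 to 0.15), but by -0.40 corrected. Uba7 and the ubiquitin E1 Uba1, with 8303 and 9246 reads, differed by -0.13 (95% interval -0.34 to 0.08). Trim25 was below Trim28, a nuclear co-repressor with 6184 and 6365 reads, by 0.13 (95% interval of the difference -0.21 to -0.05), and this direction turned with the correction, to 0.045. Dtx3l and Dtx3, which had 1310 and 974 reads, differed by -0.09 (95% interval -0.31 to 0.13), and by 0.24 corrected.

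**Figure D3:**
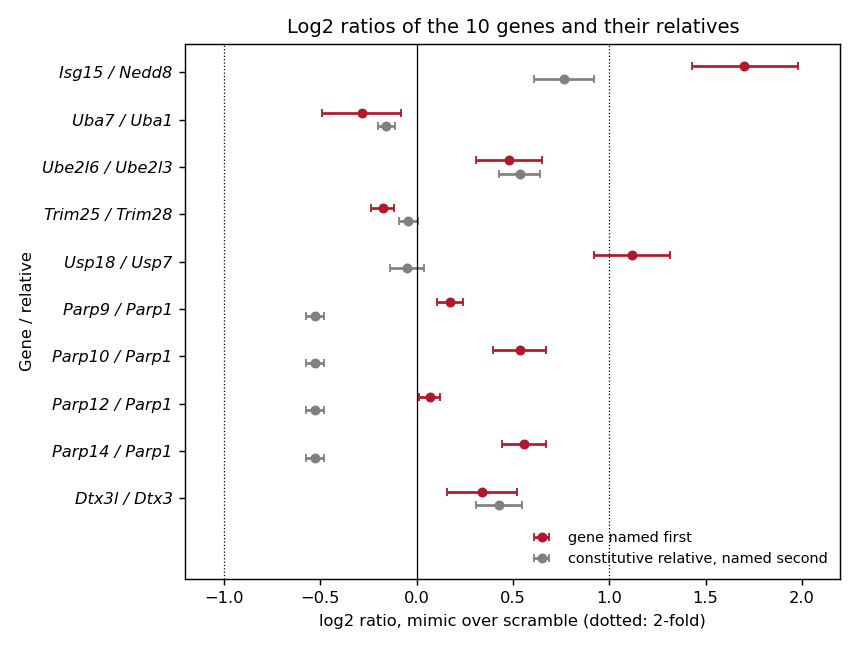
Log2 ratio of mimic to scramble, with exact 95% counting intervals (1 library each), for each of the 10 genes (red) and its fixed relative (grey), with dotted lines at 2-fold. Isg15, Usp18 and the 4 Parp genes lie to the right of their relatives, while Ube2l6, Uba7 and Dtx3l overlap theirs.

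Parp1, the DNA repair PARP used as the relative of the 4 Parp genes, was itself lower in the mimic library, with 6256 and 9022 reads and a log2 ratio of -0.53. All 4 stood above it, from Parp12 by 0.60 (95% interval 0.52 to 0.67) to Parp14 by 1.09 (95% interval 0.96 to 1.21, corrected 1.29), and part of these differences is the lower value of Parp1. In the wider family of 16 genes, Parp14 had the highest log2 ratio, followed closely by Parp6 (455 and 310 reads, 0.55) and Parp10, while Parp9 took place 5 and Parp12 place 7. Of the other 12 family genes 4 were higher in the mimic library and 8 lower, and 1 was past 2-fold, the telomeric PARP Tnks with 400 and 1095 reads and a log2 ratio of -1.45. Zc3hav1, the antiviral zinc finger protein also known as PARP13, had 1832 and 1918 reads and a log2 ratio of -0.07, and Parp12 exceeded it by 0.14 (95% interval 0.03 to 0.24), a direction that turned with the correction, to -0.031.

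**Figure D4:**
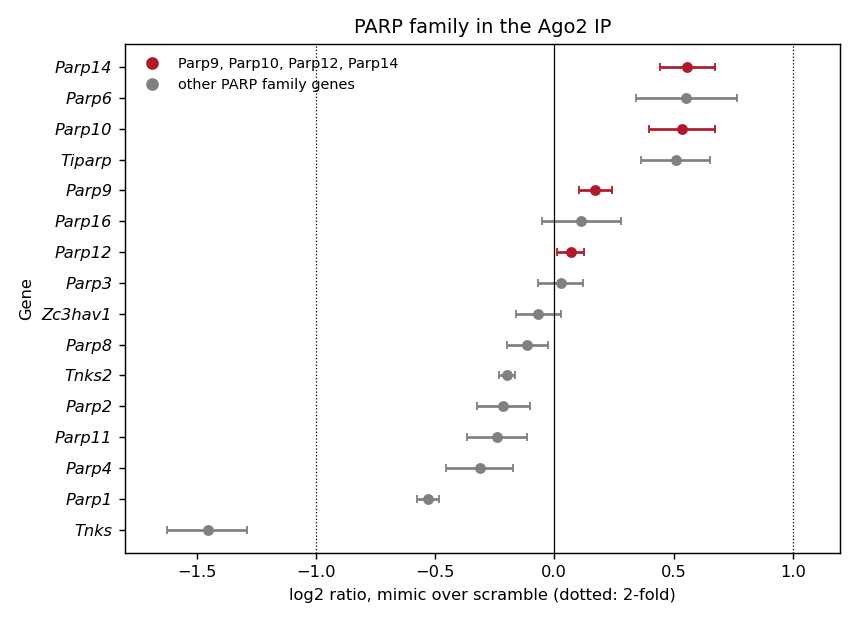
Log2 ratio of mimic to scramble with exact 95% counting intervals (1 library each) for the 16 PARP family genes, ordered from high to low, with Parp9, Parp10, Parp12 and Parp14 in red and dotted lines at 2-fold. The 4 red points lie between 0.07 and 0.56, mixed with Parp6, Tiparp and Parp16, and Tnks is the only point beyond a dotted line.

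Other genes of the pathway were described by lists, with no test. Of 12 other ubiquitin-like modifiers 1 was at least 2-fold higher, Ubb, and 0 were 2-fold lower, but corrected Ubb was 1.89-fold higher and no modifier of the list passed 2-fold. Among 9 other E1 genes 1 was at least 2-fold lower, Uba6, which activates ubiquitin and FAT10, with 514 and 1230 reads. None of 31 other E2 genes passed 2-fold in either direction, with a median log2 ratio of 0.17. The 44 other ubiquitin proteases had a median log2 ratio of -0.30 (-0.15 corrected), and 1 of them, Usp9x, was at least 2-fold lower with 1465 and 3959 reads. None of the 4 measured genes of a list headed other ISG15 ligases and partners passed 2-fold. The same held for 7 genes of a list headed as those that remove or read ADP-ribose. Not every gene of these lists is known to have the role in the heading. In the Deltex family Dtx4 was at least 2-fold higher, with 919 and 442 reads, and the 3 measured genes other than Dtx3l were all above 0.

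Of 10 factors of interferon signalling, 9 had a ratio above 1 with the mimic, as 49.9% of all genes did, and 1, Jak1, was below it. The 9 include Tyk2, a receptor kinase, at a log2 ratio of 0.03 (95% interval -0.06 to 0.12). The 10 had a median log2 ratio of 0.40 and a length-corrected median of 0.34. Irf7, the interferon-induced transcription factor, was the only one past 2-fold, with 696 and 222 reads and a log2 ratio of 1.65. The difference between Isg15 and Irf7 was 0.05 (95% interval -0.30 to 0.41), but -0.40 corrected. Stat2 had 3238 and 2130 reads and Irf9 1841 and 1203, with log2 ratios of 0.60 and 0.61. Both are parts of the complex that binds the response element. Their ratios were below those of Isg15 and Usp18 and above that of Parp14 (0.56), the next of the 10 genes. The 95% intervals of Stat2 (0.52 to 0.68) and Irf9 (0.51 to 0.72) overlapped that of Parp14 (0.44 to 0.67). Corrected, Parp14 (0.77) stood above Stat2 (0.65) and Irf9 (0.65). Counts of the interferon genes themselves were at or near 0 in these Ago2 libraries. Of 17 interferon genes in the counts, 14 had 0 reads in both libraries and the other 3, Ifnb1, Ifne and Ifnz, had at most 2. Reads that aligned to several places were counted for no gene, and their part in these low counts was not tested. Low counts here do not show that the mRNAs were absent from the cells.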

How the data were processed

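Ago2-bound RNA from 2 groups of TM4 cells (1 library each, TruSeq) was compared. Per the labels, the submitters' processing notes list CASAVA 1.8.2, TopHat2 2.0.8b, HTSeq and genome build mm9; the annotation and strand setting are not given in the sources used here. The deposited values are raw counts per gene symbol, not normalized by the authors. The 5 summary rows were left out of library sizes; they held 47.3% of all entries in the mimic and 44.1% in the scramble library, chiefly reads aligned to more than one place (39.8% and 35.6%).

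From 15973 genes with any count, the 12186 with at least 20 counts were kept. Ratios used TMM in edgeR 4.0.16 (R 4.3.3, prior count 0.125); edgeR's quasi-likelihood test could not be fitted with 1 library per group, and no p-value is given. Exact intervals came from scipy 1.17.1 and copies from BLAST 2.17.0 (at least 95% identity over 100 bases). Lengths were matched by symbol to GENCODE M21 (GRCm38) for 99.1% of kept genes; since the counts used mm9, all coordinates are those of the reference. The ratio and interval code was tested on simulated counts. Named were the 10 genes, their relatives, genes past 2-fold in each other list (at most 4 a list), Stat2, Irf9, Herc6 and Zc3hav1 (some genes of the rule and of the marker lists are not reported here); Parp6, Tiparp, Parp16, Jak1, Tyk2, Ube2n, Usp13, the near copies, marker genes and the interferon genes were named after their values were seen. Differences between genes outside the pairs with relatives and the order of ratios were also chosen after the values were seen. Members were proposed from the values of these libraries, and lists were chosen with earlier results of these data known. Alternatives were other scalings, count minimums, folds, prior counts and lengths, a 99% interval and the length regression.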

Additional observations from a re-analysis of the deposited data

Results flagged for a closer look

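Alignments to several places formed 39.8% of the mimic library's entries, against 35.6% for scramble. They were flagged because no comparison used them and their share was higher with the mimic. Reads lying in more than one gene, such as any from exon bases that Parp9 and Dtx3l share, formed 0.653% with the mimic, against 0.585% for scramble. The tables do not say which genes these entries come from, and their part in the ratios was not tested.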

How the results depend on the processing

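Over 291 alternative values, 244 stayed within their counting interval or within 1.5 times a count, 45 moved and 2 reversed. Many of the 244 could hardly move, so their number is a weak check. The library scalings are nearly equal, and a list count of 0 at 2-fold must stay 0 at 4-fold. Both reversals came with the length and GC regression, which was applied to differences between genes and to the other lists after seeing the data. They were Trim25 minus Trim28 at 0.045 and Parp12 minus Zc3hav1 at -0.031, whose intervals exclude 0. The sign also changed for Dtx3l minus Dtx3 (0.24), Ube2l6 minus Dtx3l (-0.19) and Isg15 minus Irf7 (-0.40). The intervals of these differences span 0, and they are counted with the 45 that moved. All 50 ratios of the 10 genes under other scalings and prior counts stayed within their intervals, which is a weak check because the library scalings are nearly equal. With the regression on length and GC content 3 of 10 left them, Isg15 at 1.14, Ube2l6 at 0.23 and Parp14 at 0.77 on the log2 scale, and 1 gene in place of 2 was at least 2-fold higher. At 4-fold the number was 0. The share of all genes at least 2-fold higher was 10.6% with no count minimum and 2.35% with at least 200 counts, and with a threshold of 1.5-fold it was 11.7%, with 4-fold 0.771%. Genes of the other lists past the fold numbered 6, but 15 with no count minimum, 20 at 1.5-fold and 0 at 4-fold. With the regression it was 5. With the longest transcript as length 4 of 10 places in the order of levels were kept in the scramble and 8 in the mimic library. The cause of these moves was not tested, beyond what a lower fold or count minimum does to a count by construction. The 10 genes had at least 143 reads in each library, so counting error was small for them, and replicate spread is unknown. No paired analysis was possible because each group has 1 library.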
